A study of Mus musculus with 10 samples.

Results

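Fibroblast growth factors (FGFs) are ligands that act through 4 receptor tyrosine kinases, FGFR1 to FGFR4, and most of them need heparan sulfate chains on the cell surface to bind. A small endocrine branch, which includes FGF23, FGF21 and mouse FGF15, binds heparan sulfate poorly, circulates in blood, and needs a klotho protein beside the receptor. In the healthy body FGF23 is made mainly by osteocytes and acts on the kidney with α-klotho, whereas liver is known for FGFR4 and β-klotho, which together receive the intestinal hormone FGF15 and restrain bile acid synthesis.

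Described here are 7 genes of this system in mouse liver: the ligand genes Fgf23 and Fgf1, the receptor genes Fgfr1, Fgfr2, Fgfr3 and Fgfr4, and Klb, which encodes β-klotho. They were selected on their CPM in these same 10 mice, by name, out of 38922 genes in the tables, so their differences between the groups are given as a description and carry no test. Livers came from wild-type male C57BL/6N mice aged 6 weeks, killed 6 h after an intraperitoneal injection. One group of 5 mice received 0.5 µg of CD95-Ab per g of body weight, an activating antibody against the death receptor CD95 (Fas) that causes acute liver failure, and 5 controls received the same volume of saline. No mouse carried an engineered allele. Each mouse gave 1 library of whole-liver RNA, with between 25965699 and 62097636 counts. Levels of 1 gene are given as counts scaled to a total of 1000000 (CPM), and levels of different genes are compared as FPKM, the unit of fragments per kilobase in which length is taken into account.

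The libraries of saline replicate 5 and CD95-Ab replicate 4 stood apart from the rest. In genes with up to 1000 bp of exon, they lay a median of 0.40 and 0.50 above their group means on the log2 scale, compared with -0.24 to 0.11 in the other mice. Without both of them, the log2 differences of the 7 genes kept their directions and lay within 0.19 of the values given below.

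All 7 genes passed the filter on low counts, Fgf23 only because of its counts after CD95-Ab. In the fit across the 13719 genes that passed, 6 of the 7 had an adjusted p (false discovery rate, FDR) of 0.05 or less in the quasi-likelihood test of edgeR, 3 higher and 3 lower after CD95-Ab. The same threshold was met by 47.3% of all tested genes, by 25.4% as higher and by 22.0% as lower, and nothing is read from the count because these values chose the genes. The groups did not overlap for 2 of the 7, Fgf23 and Fgf1, against 33.3% of all tested genes (18.6% with CD95-Ab higher and 14.7% with CD95-Ab lower). A log2 difference of 2 or more in addition was found for Fgf23 alone among the 7, against 6.59% of all tested genes. Of the 7, only Fgfr4 did not meet the FDR threshold, with a log2 difference of -0.34 (SE 0.19). Among the 6 that met it, Fgfr3 had the log2 difference of smallest size, -0.62 (SE 0.20). The median log2 difference over all tested genes was 0.01. In whole liver, fewer cells of a type and less RNA per cell cannot be told apart, and this holds for each gene below.

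**Figure D1:**
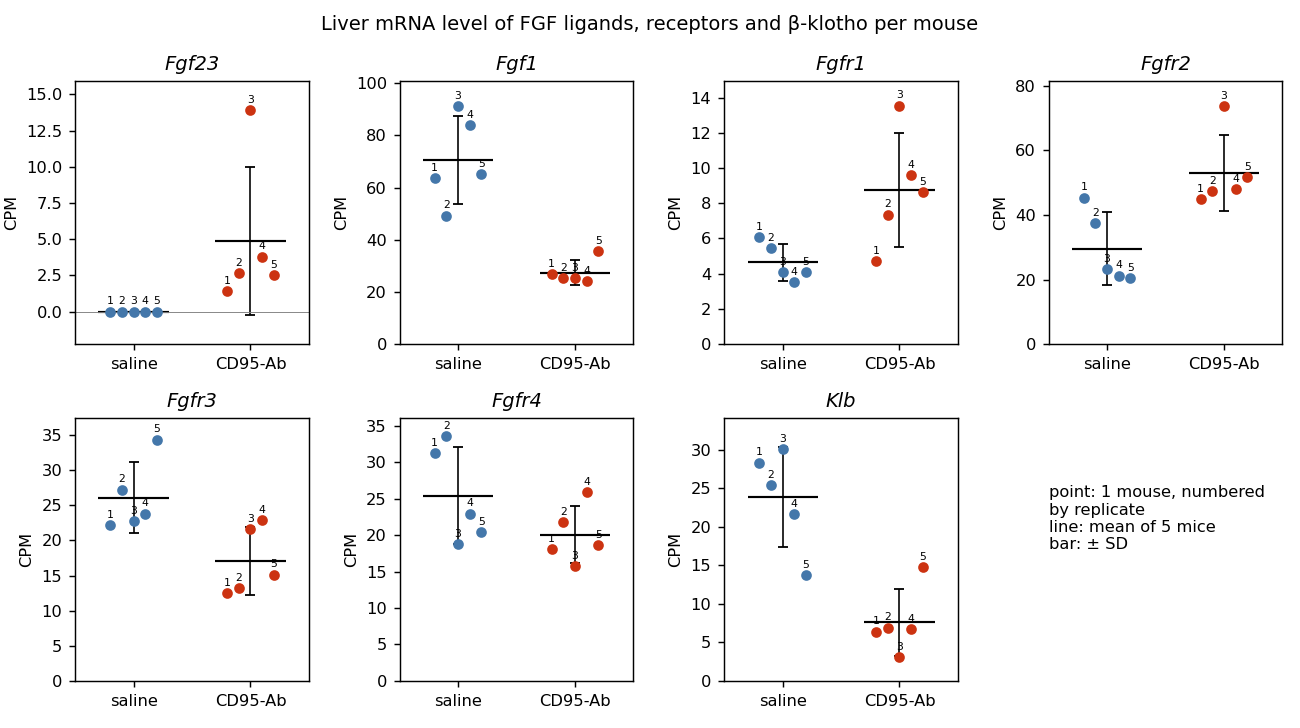
CPM of each gene (vertical axes, each with its own scale) in the 5 saline-injected mice (blue) and the 5 mice injected with CD95-Ab (red), numbered by replicate, with the mean as a line and ± SD as a bar. Fgf23 is at 0 in every saline-injected mouse and highest in CD95-Ab replicate 3 at 13.9 CPM, and the groups overlap for Fgfr1, Fgfr2, Fgfr3, Fgfr4 and Klb.

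Fgf23 (ENSMUSG00000000182), the phosphate-lowering hormone of bone, had no count in any saline-injected liver and was counted in all 5 livers after CD95-Ab. The gene lies on the plus strand of chromosome 6 at 127072902 to 127081408 (GRCm38), with no other annotated gene on top of it, and none of its 1765 stretches of 50 bases occurs in a transcript of another gene. The counts after CD95-Ab were 45, 84, 350, 94 and 114 in replicates 1 to 5. These are 1.44, 2.68, 13.9, 3.79 and 2.52 CPM. Every treated mouse was above every control, and replicate 3 stood alone at 3.67 times the next highest mouse and held 50.9% of the 687 counts of the group.

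Because the controls were all at 0, any fold is a lower bound. A count of 0 allows up to 3 counts, which correspond to 0.0556 to 0.115 CPM in the saline libraries, counting error only. Against the mean of these per-library floors, Fgf23 was at least 58.7-fold higher after CD95-Ab, and at least 31.4-fold higher without CD95-Ab replicate 3. The lowest treated mouse was still at least 12.5-fold above the highest floor. Without replicate 3, the mean after CD95-Ab was 2.61 ± 0.96 CPM (SD, n = 4). Per length the level stayed low, between 0.93 and 7.07 FPKM.

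The 250 bases before the annotated start of Fgf23 are shown because no count was seen in controls and 687 after CD95-Ab, with capitals for the matches to the motifs searched (RefSeq, GRCm38.p6, chr6:127072652-127072901, plus strand, 5′ to 3′).
Fgf23: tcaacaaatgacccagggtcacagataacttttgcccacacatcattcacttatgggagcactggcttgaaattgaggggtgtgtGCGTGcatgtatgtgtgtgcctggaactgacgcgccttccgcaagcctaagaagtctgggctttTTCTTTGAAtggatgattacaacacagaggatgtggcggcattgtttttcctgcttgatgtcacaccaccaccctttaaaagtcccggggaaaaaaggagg
The first run of capitals, 165 bases before the start, is GCGTG, a core of the hypoxia response element, which was found on either strand in 28.2% of 32851 mouse promoters of this length. The other, 101 bases before the start, fits the STAT motif TTCNNNGAA, which was found in 7.02% of them. The other hypoxia core ACGTG (16.6% of promoters), the AP-1 motif TGANTCA (6.75%) and the NF-kB motif (3.90%) were searched on both strands and TATAAA (7.59%) on the forward strand, and none of them is in this window. A match is a string of letters and does not show that a factor binds there.

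Neighbouring genes within 100 kb did not share the pattern of Fgf23. Fgf6, a muscle FGF on the same strand 44714 bp away, had 0 counts in every mouse. Tigar, a regulator of glycolysis on the opposite strand 3707 bp past the end of Fgf23, was at 7.50 ± 0.72 CPM in controls and 8.32 ± 0.61 CPM after CD95-Ab (SD, n = 5 each, log2 difference 0.15, edgeR FDR = 0.310). Ccnd2, the cell cycle gene of cyclin D2, rose from 2.97 ± 1.15 to 15.8 ± 3.6 CPM (log2 difference 2.41, SE 0.29, edgeR FDR = 4.42e-05) and had its own level in controls. D6Wsu163e did not pass the test (log2 difference -0.49, edgeR FDR = 0.126), and the RNAs Platr31 and 9330179D12Rik had 1 and 5 counts over all mice.

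Genes whose profile over the 10 mice was most like that of Fgf23 were Cd177, a surface protein of neutrophils, Nos2, the inducible nitric oxide synthase, Chil1, a chitinase-like protein, and the unnamed transcripts Gm10800 and Gm26870. After each gene's own mean was subtracted, their log2(CPM + 0.1) values differed from those of Fgf23 by a root mean square of 0.42 for Cd177, 0.47 for Nos2, 0.52 for Gm10800 and Chil1, and 0.53 for Gm26870. Each of them had at most 6 counts in any saline-injected mouse.

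Osteocyte and osteoblast markers, which mark the usual source of Fgf23, were at the floor in both groups. Their 7 genes summed to between 0 and 0.0927 CPM in controls and between 0.0318 and 0.121 CPM after CD95-Ab, with 17 counts in all 10 mice together, and Mepe and Ibsp were at 0 throughout. Markers of erythroid cells and neutrophils were higher after CD95-Ab, as were most stellate, sinusoidal endothelial and cholangiocyte markers (below). The 5 erythroid markers (hemoglobin genes and Alas2) all rose, beside 25.4% of all tested genes that rose. Their sum went from 135 to 323 CPM in controls to 1064 to 33995 CPM after CD95-Ab. Alas2 alone was at 73.2 to 105 CPM in controls, and in CD95-Ab replicate 1, at 72.7 CPM, it was below every control. The 6 neutrophil markers summed to 3.50 to 9.08 CPM in controls and 97.2 to 396 CPM after CD95-Ab, and all 4 of them that could be tested rose.

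Within the treated group, the order of the mice by Fgf23, from lowest to highest replicates 1, 5, 2, 4 and 3, was also their order by the erythroid sum, which was 1064, 5354, 7054, 20663 and 33995 CPM in that sequence. The neutrophil sum did not follow it, since replicate 5 was second highest there. Sums were compared in this way for erythroid, neutrophil and osteocyte markers only. Among single markers, Alas2 of the erythroid list did not have this order. Serpina1a of the hepatocyte list and Des of the stellate cell list did. The same order was found for 186 of the other 13718 tested genes (1.36%) and for 2 of the 68 tested genes of the FGF pathway lists (2.94%), Spry2 and Egr1. The shared order was noticed after the values were seen, and the part of blood cells in the level of Fgf23 was not tested.

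**Figure D2:**
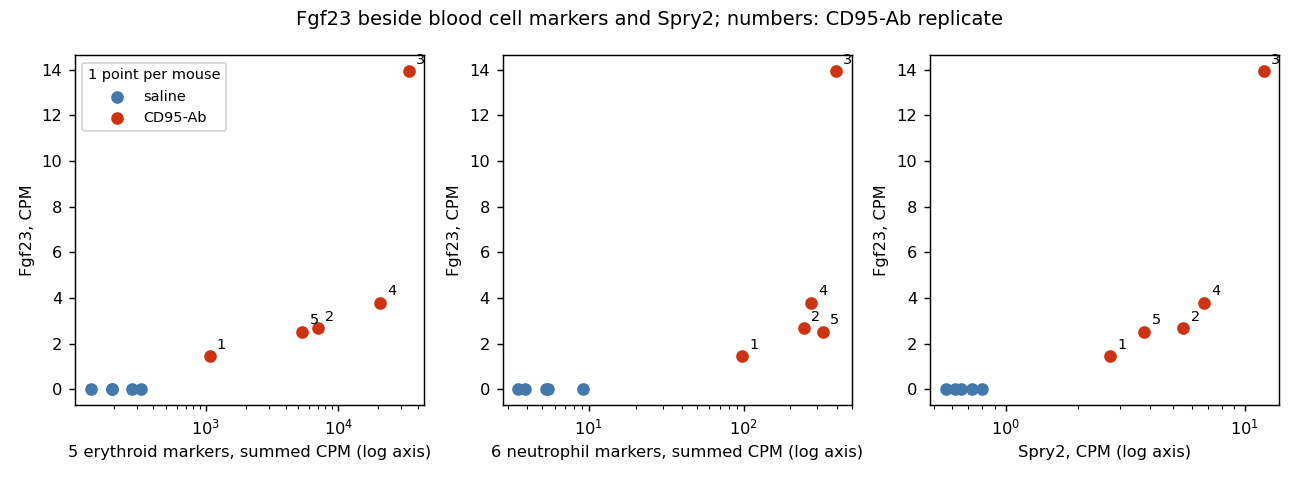
Fgf23 in CPM (vertical axis) against the summed CPM of erythroid markers, the summed CPM of neutrophil markers and the CPM of Spry2 (horizontal log axes), 1 point per mouse, with CD95-Ab replicates numbered. All saline-injected mice lie at 0 for Fgf23, and among treated mice replicate 1 is lowest and replicate 3 highest in each panel.

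Fgf1 (ENSMUSG00000036585, chromosome 18, minus strand), an FGF without a secretion signal that can activate all 4 receptors, was lower after CD95-Ab. Controls had 63.7, 49.3, 91.3, 83.8 and 65.3 CPM in replicates 1 to 5. Treated mice had 26.8, 25.2, 25.5, 24.1 and 35.7 CPM. Every treated mouse was below every control, with CD95-Ab replicate 5 apart from 4 others that lay within 2.70 CPM of each other. The means were 70.7 ± 16.8 and 27.5 ± 4.7 CPM (SD, n = 5 each), a log2 difference of -1.36 (SE 0.18). A gene model of Arhgap26 covers Fgf1 on the opposite strand, under an identifier that is not in the tables, and whether strand was used in counting is not given in the sources used here.

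The other secreted FGF genes were almost silent. Of 16, 8 had 0 counts in every mouse, among them Fgf15, and 15 stayed under 10 counts in each mouse. The exception was Fgf21, a fasting hormone of the liver that signals through β-klotho. Its controls had 2.78, 16.8, 1.75, 6.23 and 1.30 CPM, and treated mice had 1.22, 1.31, 0.199, 0.444 and 0.598 CPM. Saline replicate 2 was far above the other controls, and the groups overlapped only through saline replicate 5 and CD95-Ab replicate 2. Fgf21 fell (log2 difference -2.91, SE 0.73, edgeR FDR = 0.00651), by less without saline replicate 2 (-1.97, FDR = 0.0140).

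Among the receptors, Fgfr1 and Fgfr2 were higher after CD95-Ab and Fgfr3 was lower, while Fgfr4 differed by less than 2 SE. Fgfr1 (ENSMUSG00000031565, chromosome 8, 25513654 to 25575718, plus strand), the receptor FGF23 uses with α-klotho in kidney, was at 6.07, 5.45, 4.11, 3.54 and 4.10 CPM in controls and at 4.72, 7.36, 13.5, 9.61 and 8.61 CPM after CD95-Ab. CD95-Ab replicate 1 lay among the controls and replicate 3 was the highest, as for Fgf23. The log2 difference was 0.91 (SE 0.26), from 4.66 ± 1.06 to 8.77 ± 3.23 CPM (SD, n = 5 each).

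Fgfr2 (ENSMUSG00000030849, chromosome 7, minus strand, 130162451 to 130266808 in RefSeq), whose isoforms serve epithelial and mesenchymal cells, was at 45.4, 37.6, 23.3, 21.2 and 20.3 CPM in controls and at 44.8, 47.4, 73.7, 47.9 and 51.7 CPM after CD95-Ab. Saline replicates 1 and 2 were well above the other controls, and the groups overlapped only because saline replicate 1 was slightly above CD95-Ab replicate 1. CD95-Ab replicate 3 was again the highest. The log2 difference was 0.84 (SE 0.24), from 29.6 ± 11.3 to 53.1 ± 11.8 CPM.

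Fgfr3 (ENSMUSG00000054252, chromosome 5, 33721674 to 33737068, plus strand), best known as a brake on bone growth, was at 22.2, 27.2, 22.7, 23.8 and 34.4 CPM in controls and at 12.5, 13.2, 21.6, 22.8 and 15.1 CPM after CD95-Ab. The groups overlapped through CD95-Ab replicate 4, which was level with the lower controls. The log2 difference was -0.62 (SE 0.20), from 26.1 ± 5.0 to 17.0 ± 4.9 CPM. Of its stretches of 50 bases, 11.6% also occur in transcripts of Nvl or of the overlapping G630022F23Rik, so its counts depend more than those of the other receptors on how shared reads were assigned. That share was 1.49% for Fgfr1, 2.47% for Fgfr2 and 0 for Fgf1, Fgfr4 and Klb, and no stretch was shared between any of the 7 genes.

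Fgfr4 (ENSMUSG00000005320, chromosome 13, 55152640 to 55168759, plus strand), the FGF15 receptor of hepatocytes, was at 31.3, 33.6, 18.8, 23.0 and 20.4 CPM in controls and at 18.1, 21.8, 15.8, 25.9 and 18.7 CPM after CD95-Ab. The groups overlapped widely, and the higher mean of the controls came from saline replicates 1 and 2, the same mice that were highest among controls for Fgfr1 and Fgfr2. The log2 difference was -0.34 (SE 0.19), from 25.4 ± 6.6 to 20.1 ± 3.9 CPM.

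Klb (ENSMUSG00000029195, chromosome 5, 65348314 to 65384007, plus strand), the co-receptor for FGF15 and FGF21, was at 28.4, 25.5, 30.1, 21.6 and 13.8 CPM in controls and at 6.42, 6.91, 3.07, 6.74 and 14.8 CPM after CD95-Ab. The groups overlapped only in replicate 5 of each, and CD95-Ab replicate 3, the highest for Fgf23, was the lowest for Klb. The log2 difference was -1.64 (SE 0.35), from 23.9 ± 6.5 to 7.59 ± 4.34 CPM.

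The marker counts that follow stand beside 25.4% of all tested genes that rose and 22.0% that fell. Of 8 hepatocyte markers, 3 fell (Alb, Ttr and Asgr1), none rose and 5 did not pass the test. Their log2 differences lay between -1.03 for Alb and 0.31 for Tat, with a median of -0.42, and their sum was 100400 to 124451 CPM in controls and 44051 to 82904 CPM after CD95-Ab. The log2 differences of Fgf1 (-1.36, SE 0.18) and Klb (-1.64, SE 0.35) were below that of every hepatocyte marker listed, the nearest being Alb (-1.03, SE 0.25). Those of Fgfr3 and Fgfr4 were within the range of the markers. No test compared the 7 genes with the markers. Of the stellate cell markers 5 of 6 rose, with sums of 116 to 154 CPM in controls and 281 to 441 CPM after CD95-Ab, and of the sinusoidal endothelial markers 5 of 6 rose, from 53.4 to 123 CPM to 176 to 325 CPM. Of the cholangiocyte markers 4 of 5 rose, from 18.3 to 33.8 CPM to 48.3 to 186 CPM, and of the macrophage markers 2 of 6 rose and 4 did not pass, with sums of 87.4 to 270 CPM and 162 to 328 CPM that overlapped. All 6 lymphocyte markers rose as well, from 4.93 to 16.9 CPM to 44.1 to 71.9 CPM. The part of these cell types in the levels of Fgf1, Fgfr1, Fgfr2, Fgfr3, Fgfr4 and Klb was not tested.

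Compared per length with the deposited FPKM, Fgf1 led in controls with a median of 20.2 FPKM. It was followed by Fgfr2 (9.56 FPKM), Klb (8.53 FPKM), Fgfr4 (7.03 FPKM), Fgfr3 (6.69 FPKM) and Fgfr1 (1.25 FPKM), with Fgf23 at 0. From Fgf1 down to Fgfr3, each gene overlapped the next in range, while Fgfr3, Fgfr1 and Fgf23 were separate. Within mice, Fgfr2 was above Klb in 5 of 5 controls, whereas Fgf1 was above Fgfr2 in 3, Klb above Fgfr4 in 1 and Fgfr4 above Fgfr3 in 3. After CD95-Ab, Fgfr2 led with a median of 20.99 FPKM and did not overlap Fgf1 at 7.42 FPKM. Fgfr4 (6.41 FPKM), Fgfr3 (4.22 FPKM), Fgfr1 (2.69 FPKM), Klb (2.03 FPKM) and Fgf23 (1.52 FPKM) followed, each overlapping its neighbours in range. Fgfr3 was above Fgfr1 in 5 of 5 mice. The place of Fgfr2 in these orders depends on the length used. With CPM divided by exon length, its mean share among the receptors was below that of Fgfr4 in both groups, as given below.

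**Figure D3:**
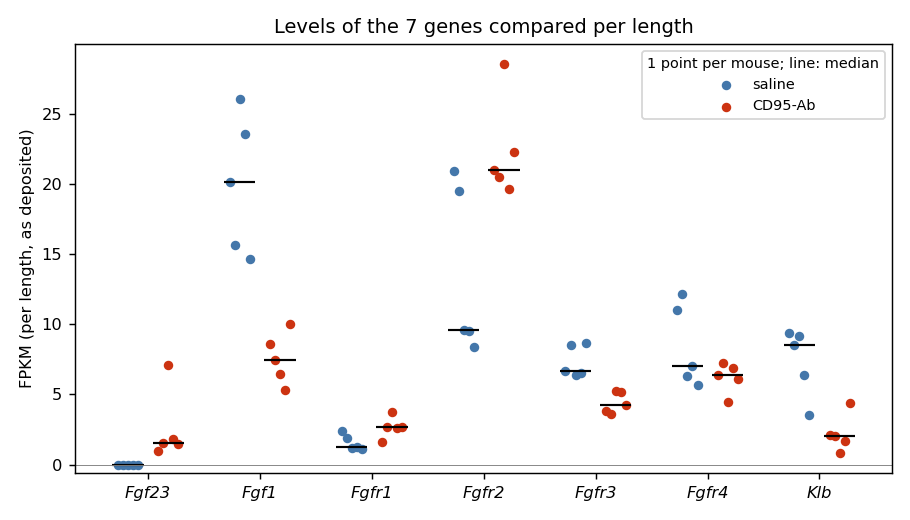
FPKM of the 7 genes (vertical axis) in saline-injected mice (blue) and mice injected with CD95-Ab (red), 1 point per mouse, with the median as a line. Fgf1 has the highest median in controls (20.2 FPKM) and Fgfr2 after CD95-Ab (20.99 FPKM). FPKM are as deposited, and the place of Fgfr2 depends on the length used.

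The 4 receptors together reached 31.0 ± 9.7 FPKM in controls and 35.7 ± 3.6 FPKM after CD95-Ab (SD, n = 5 each), with ranges that overlapped, but their mixture differed. Fgfr2 made up 42.5% ± 6.2 of this sum in controls (35.2 to 51.1%) and 62.5% ± 4.1 after CD95-Ab (57.3 to 68.0%), without overlap. Fgfr3 made up 25.4% ± 7.7 and 12.4% ± 1.7, and Fgfr4 27.0% ± 2.1 and 17.8% ± 4.2, likewise without overlap, whereas the shares of Fgfr1, 5.02% ± 0.49 and 7.38% ± 1.5, overlapped.

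Which receptor leads depended on the length used. The FPKM values of Fgfr2 correspond to a length of 2072 to 2530 bp, compared with 10328 bp of exon in the annotation. That annotated model runs from 130162451 to 133123350, far past the RefSeq end at 130266808, and overlaps 69 other genes. Its exon length therefore includes exon sequence outside the RefSeq span, and which length suits Fgfr2 better was not tested. With CPM divided by exon length, Fgfr4 led in both groups, at 50.3% ± 4.1 and 40.6% ± 7.5, and Fgfr2 made up 19.8% ± 4.1 and 36.5% ± 5.7. The share of Fgfr2 was higher in all 5 treated mice than in any control with either length. For Fgfr3 and Fgfr4, the shares of the groups were separate with the deposited FPKM only. They overlapped with CPM divided by exon length.

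**Figure D4:**
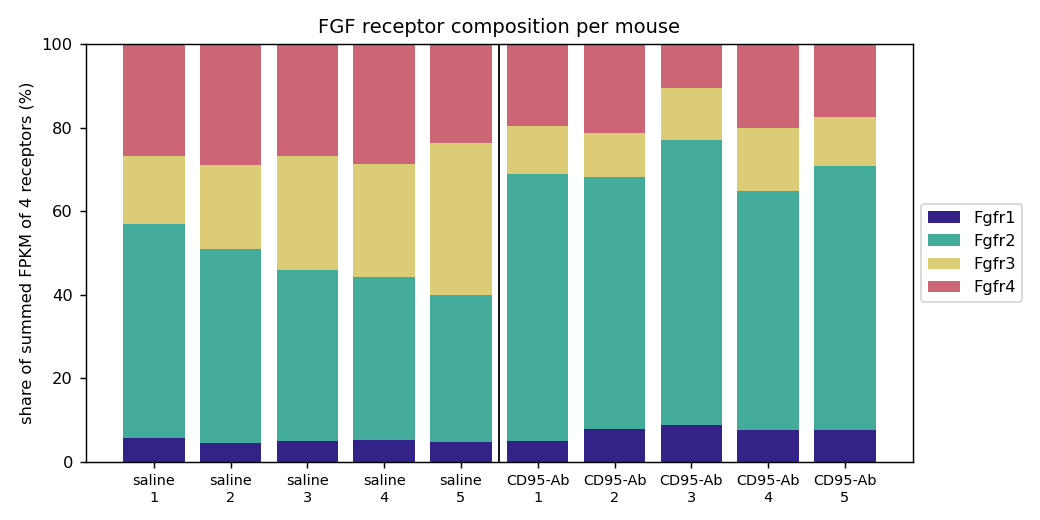
Share of each receptor gene in the summed FPKM of Fgfr1 to Fgfr4 (vertical axis, percent) in each mouse, with saline replicates left of the line and CD95-Ab replicates right of it. The band of Fgfr2 is between 35.2 and 51.1% in controls and between 57.3 and 68.0% after CD95-Ab.

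Relative to Fgfr4, its partner in hepatocytes, Klb was at a ratio of 0.906 ± 0.329 of their FPKM values in controls and 0.350 ± 0.210 after CD95-Ab (SD, n = 5 each). Only CD95-Ab replicate 5, at 0.713, reached the range of the controls, which was 0.620 to 1.46. The FPKM ratio of Fgfr2 to Fgfr4 was 1.57 ± 0.20 in controls and 3.80 ± 1.49 after CD95-Ab. CD95-Ab replicate 3 was highest at 6.39, and the groups did not overlap. Its size depends on the length used. With CPM divided by exon length, the mean share of Fgfr2 was below that of Fgfr4 in controls (19.8% against 50.3%) and after CD95-Ab (36.5% against 40.6%).

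The co-receptor FGF23 uses in kidney was barely counted. Kl, the gene of α-klotho, had at most 3 counts in a mouse and at most 0.0664 CPM, and Lctl, another klotho family gene, had none. Fgfrl1, a receptor without a kinase domain, fell from 21.1 ± 3.0 to 9.74 ± 1.57 CPM (log2 difference -1.12, SE 0.14, edgeR FDR = 7.18e-05), with no overlap between the groups. The 4 kidney genes that FGF23 is known to act on, Cyp27b1, Cyp24a1, Slc34a1 and Slc34a3, had too few counts to be tested.

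Over 12 lists of further FGF pathway genes, 68 of the 102 genes in the tables could be tested. Of these, 28 rose, 13 fell and 27 did not pass, and the median log2 difference was 0.38. The 60.3% that passed stand beside 47.3% of all tested genes. The lists were drawn up with earlier results of these data known.

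Feedback inhibitors dampen the signal from receptors to ERK, and many of them are induced by ERK signaling. Of 9 tested, 5 rose, none fell and 4 did not pass, with a median log2 difference of 1.45, beside 25.4% of all tested genes that rose. The 4 that did not pass were Spry1 (log2 difference 0.22), Spred2 (0.46), Spred3 (0.83) and Il17rd (-0.17). Spry2, a Sprouty adaptor, was at 0.800, 0.652, 0.563, 0.616 and 0.723 CPM in controls and at 2.73, 5.54, 12.0, 6.74 and 3.81 CPM after CD95-Ab (log2 difference 3.18, SE 0.37, edgeR FDR = 3.91e-05). Controls lay close together, and treated mice spread over a wide range with replicate 3 on top. Its relative Spry4 rose from 7.77 ± 2.59 to 40.6 ± 15.3 CPM (log2 difference 2.39). Spred1, which restrains RAF, rose from 12.5 ± 2.7 to 37.0 ± 5.9 CPM (1.57), and Dusp6, the ERK phosphatase, from 57.2 ± 13.9 to 156 ± 25 CPM (1.45). The groups did not overlap for any of these. Cbl, a ubiquitin ligase for receptor kinases, rose by a log2 difference of 1.65 with overlap. These inhibitors respond to many receptors besides those for FGFs, and none of the values here tells the receptors apart.

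**Figure D5:**
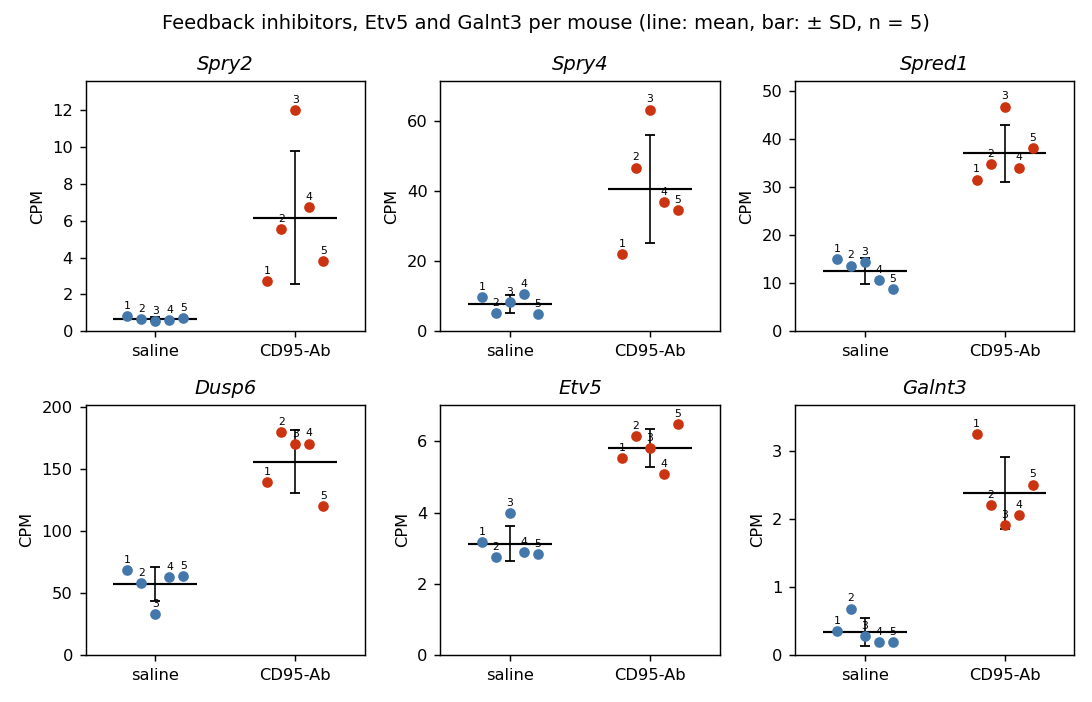
CPM (vertical axes, from 0) of the feedback inhibitors Spry2, Spry4, Spred1 and Dusp6, of Etv5 and of Galnt3 in saline-injected mice (blue) and mice injected with CD95-Ab (red), numbered by replicate, with mean and ± SD (n = 5). All treated mice are above all controls in each panel.

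Of 4 tested transcription factor genes that ERK is known to induce, 3 rose, beside 25.4% of all tested genes that rose. Etv1 and Etv4 were also listed and had too few counts to be tested. Etv1 had a mean of 0.388 CPM in controls and 0.148 CPM after CD95-Ab, and Etv4 of 0.0566 and 0.320 CPM. With DESeq2, and with no filter, 1 gene of this list was called lower. Myc rose from 4.0 ± 1.17 to 55.3 ± 22.8 CPM (log2 difference 3.78), and Etv5, an ETS factor, from 3.13 ± 0.50 to 5.81 ± 0.54 CPM (0.89), both without overlap. The zinc finger factor Egr1 rose by a log2 difference of 1.54 (SE 0.51, edgeR FDR = 0.0275), from 38.7 to 437 CPM in controls and 373 to 818 CPM in treated mice. That call was lost in edgeR without CD95-Ab replicate 2 (FDR = 0.0539), CD95-Ab replicate 3 (0.0557), saline replicate 1 (0.0569) or saline replicate 5 (0.0577), and without both libraries that stood apart (0.0931). Fos did not pass (log2 difference 1.55, edgeR FDR = 0.134) and passed without saline replicate 2 (2.82, FDR = 0.00545), whose level was 156 CPM.

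Of 18 genes that relay the signal between receptor and ERK, 5 rose, 4 fell and 9 did not pass, with a median log2 difference of -0.08, close to the shares of all tested genes that rose (25.4%) and fell (22.0%). Plcg1, the phospholipase recruited by FGF receptors, fell from 38.7 ± 3.9 to 15.7 ± 3.5 CPM (-1.30), the adaptor gene Frs3 fell by 0.82 and the exchange factor gene Sos1 fell by 0.69 on the log2 scale, and the GTPase gene Nras rose (0.73). Among 17 tested genes of heparan sulfate and FGF binding, 6 rose, 2 fell and 9 did not pass. Flrt2, a membrane protein that binds FGF receptors, rose from 0.284 ± 0.141 to 1.22 ± 0.52 CPM (log2 difference 2.10), and Hspg2, the basement membrane proteoglycan perlecan, from 11.02 ± 2.9 to 26.5 ± 8.7 CPM (1.26). The sulfatases, which trim heparan sulfate, parted: Sulf1 rose from 0.629 ± 0.226 to 1.99 ± 1.21 CPM (1.66), and Sulf2 fell from 11.4 ± 3.5 to 5.24 ± 2.79 CPM (-1.12, edgeR FDR = 0.0150). The call of Sulf2 was lost without both libraries that stood apart (FDR = 0.0529).

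Genes listed for the processing of FGF23 or for mineralization were tested in 5 cases, of which 1 rose, 2 fell and 2 did not pass. Over all tested genes, 25.4% rose and 22.0% fell. Galnt3, whose enzyme adds the sugar that protects FGF23 from cleavage, rose. It was at 0.353, 0.682, 0.282, 0.192 and 0.185 CPM in controls and at 3.24, 2.20, 1.91, 2.06 and 2.50 CPM after CD95-Ab (log2 difference 2.81, SE 0.35, edgeR FDR = 5.64e-05). Every treated mouse was above every control, and the order differed from that of Fgf23, with replicate 1 highest and replicate 3 lowest. Furin, a protease that cuts FGF23, fell by 0.52 on the log2 scale (SE 0.18, edgeR FDR = 0.0293), and lost that call in edgeR without CD95-Ab replicate 1 (FDR = 0.0580), CD95-Ab replicate 5 (0.0678) or saline replicate 3 (0.0742), and without both libraries that stood apart (0.0522). Enpp1, which makes the mineralization inhibitor pyrophosphate, fell by 0.77 on the log2 scale.

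Genes whose products are known to raise FGF23 in bone or other cells were mostly higher. Of 9 tested, 7 rose, none fell and 2 did not pass, beside 25.4% of all tested genes that rose. The part of these genes in the level of Fgf23 was not tested. Lcn2, an iron-binding protein of the acute phase, rose from 29.6 ± 21.2 to 1771 ± 678 CPM (log2 difference 5.90). The cytokine genes Tnf (5.58), Il6 (3.80) and Il1b (3.78), the vitamin D receptor gene Vdr (3.88) and Hif1a, the hypoxia factor (1.51), rose as well, with no overlap between the groups. In controls Tnf, Vdr and Il6 had at most 6, 5 and 11 counts in a mouse, so the size of their difference rests on few counts. It was 4.72 for Vdr without saline replicate 2, 4.55 for Il6 without saline replicate 5 and 4.99 for Tnf without both libraries that stood apart.

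Of 4 genes on the FGF15 axis of the liver, 3 fell and 1 rose, beside 22.0% of all tested genes that fell and 25.4% that rose. Cyp7a1, the rate-limiting enzyme of bile acid synthesis, fell from 50.02 ± 13.0 to 1.11 ± 0.64 CPM (log2 difference -5.46), Cyp8b1, which makes cholic acid, by 2.39 and Nr1h4, the bile acid receptor FXR, by 1.13 on the log2 scale. Nr0b2, the FXR target SHP, rose (0.74, edgeR FDR = 0.0242). That call was lost in edgeR without CD95-Ab replicate 4 (FDR = 0.0511) or 5 (0.0632) or without saline replicate 1 (0.0547), 2 (0.0575) or 3 (0.0545), and without both libraries that stood apart (0.0728).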

How the data were processed

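Liver RNA of 10 mice, 5 per group, was analysed, with groups and replicate numbers taken from the sample labels. The authors assigned reads to genes with RSEM 1.2.19 and deposited expected counts, which are whole numbers here and not normalized, and FPKM values, which RSEM scales for transcript length and library size. The paper names a human Gencode release, whereas the identifiers are mouse Ensembl ones; the mouse release and build are not given in the sources used here. Symbols and positions came from GENCODE mouse release 21 (GRCm38), which matched 37606 of 38922 identifiers. After the filterByExpr filter (minimum count 10) and TMM scaling, the groups were compared in edgeR 4.0.16 (R 4.3.3) by its quasi-likelihood test, without further covariates and with Benjamini-Hochberg adjustment. CPM use TMM-adjusted totals, at which 3 counts are 0.0556 to 0.121 CPM. Floors cover counting error only.

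The 7 genes, the gene lists and the rule for named genes were chosen with earlier results of these data known. Named were the 7 genes, other tested FGF, receptor and klotho genes, up to 4 genes of each list with the largest difference among those that passed and 1 that did not, genes with counts within 100 kb of Fgf23, the 5 genes most like it, and the markers at the ends of their lists. Not every gene that meets the rule is given, and Il1b, Hif1a, Dusp6, Fgf6, Ttr and Asgr1 were named after their values were seen. The labels describe replicates as biological, 1 mouse each. Chi-square per degree of freedom between mice of a group was 41.7 to 578 over 20 pairs, so no library was a copy of another. No sequencing batch is given in the labels or the paper. Same-numbered mice deviated together with correlations from -0.274 to 0.257, so numbers were not taken as pairs. Alternatives were DESeq2 1.42.0, limma 3.58.1 (voom), other filters, scalings and prior counts, exon length in place of FPKM, a block for replicate number, and fits that each leave 1 mouse out. Leaving out both libraries that stood apart was added after seeing the data. The code was tested on simulated data. Tables were summarised with Python 3.11.15 and pandas 2.3.3.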

Additional observations from a re-analysis of the deposited data

Results flagged for a closer look

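In 8 of 106 groups of 5 mice, 1 mouse was far from the other 4 by Dixon's criterion, which chance alone meets in about 5% of groups. CD95-Ab replicate 3 was high for Fgf23 (13.9 CPM, others 1.44 to 3.79), Fgfr2 (73.7 CPM, others 44.8 to 51.7), Cd177 (6.93 CPM, others 1.16 to 2.77) and Nos2 (11.5 CPM, others 1.37 to 4.04). Cd177 and Nos2 had been chosen for their likeness to Fgf23, so their flags are not separate from its own. CD95-Ab replicate 5 was high for Fgf1 (35.7 CPM, others 24.1 to 26.8). CD95-Ab replicate 4, which had relatively more counts in short genes, was high for the cytokine gene Tnf (7.75 CPM, others 2.34 to 3.17) and low for Stim1, a calcium sensor of the endoplasmic reticulum (8.03 CPM, others 20.0 to 23.9). Saline replicate 3 was high for Sos1 (41.1 CPM, others 26.1 to 30.0).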

How the results depend on the processing

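No direction was reversed among the 7 genes, the pathway counts and the named genes under the alternatives run. The fitted log2 difference of Fgf23, which has no counts in controls and so depends on the prior count, was 10.40, and it was 6.42 with a prior count of 2, 7.96 with limma voom and 9.55 to 10.65 with 1 mouse left out, lowest without CD95-Ab replicate 3. With at least 10 counts required in every mouse, Fgf23 could not be fitted. Genes past both thresholds numbered 904 higher and 152 lower; 10 counts in every mouse left fewer genes to test and gave 534 and 68, no filter gave 1374 and 277, and DESeq2 gave 250 lower, a move whose cause was not tested. Scaled by library totals alone, 2878 genes were higher and 3244 lower, compared with 3480 and 3015. With CPM per exon length, mean receptor shares were 3.33% for Fgfr1 in controls, 19.8% and 36.5% for Fgfr2, 16.7% for Fgfr3 after CD95-Ab, and 50.3% and 40.6% for Fgfr4. A replicate block lowered the number of genes at the FDR threshold from 6495 to 5987 (32 and 13 instead of 28 and 13 of the pathway genes), and Fos passed (FDR = 0.00951, also with limma voom, 0.0168). Only 4 of 10 mice correlated best with the mouse of their own number, so the numbers were not used as pairs. Depth limits Fgf23 in controls to the floor of 3 counts.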
